A study of Homo sapiens with 9 samples.

Results

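The histone genes of the 4 replication-dependent clusters were described in LN229, an established human glioblastoma cell line, by sequencing of polyadenylated RNA. Members were the rows of the authors' expression table whose symbol starts with HIST1H, HIST2H, HIST3H or HIST4H, which gave 56 of 19356 genes. Of these, 46 reached a mean antilog of 10 across the 9 libraries and were tested among 16457 such genes. The antilog is the deposited log2 value taken back to a linear scale, in the authors' normalised units. The remaining 10 members lay at log2 values of 0.68 to 3.33 and were not tested. HIST1H3B lay just inside that limit with a mean antilog of 10.4, and HIST1H4D just outside it with 9.82.

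The libraries came from 3 groups of 3: knockout line B3 and knockout line C4, in which ARNT2 was targeted by CRISPR, and wild-type (WT) LN229 cells. ARNT2 is a transcription factor of the basic helix-loop-helix PAS family, and the study concerned its part in proliferation and differentiation of glioblastoma. All groups, WT included, were grown in DMEM with 5% FBS. Each knockout genotype is a single line, so the knockout and the line cannot be told apart, and the labels do not give whether a line is a single clone. Nothing in the labels states that libraries of a group are separate cultures, and p-values then describe the spread between these libraries, which may be technical. Read depth cannot be had from the log2 values.

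Checks on the whole series were as follows. ARNT2 fell by 1.69 ± 0.03 on the log2 scale in B3 (limma, adjusted p = 1.74e-21) and fell by 1.43 ± 0.03 in C4 (adjusted p = 1.88e-20), with no overlap with WT. By exact two-sided permutation of the libraries, p was 0.1 for B3 and for C4, and 3 against 3 libraries can go no lower. All 8 glial and glioma markers passed the filter, with a summed antilog of 521500 to 544200 in B3, 473600 to 496100 in C4 and 475100 to 486200 in WT. Of the immune markers, PTPRC and CD3E had mean antilogs of 5.15 and 3.66, while CD68 lay at 1773. The list with CD68 summed to 1983 to 2060 in B3, 1666 to 1689 in C4 and 1669 to 1720 in WT. Epithelial markers summed to 784 to 904 in B3, 622.3 to 950.4 in C4 and 719.2 to 879.5 in WT, and endothelial markers to 483.2 to 506.7 in B3, 582.1 to 601.2 in C4 and 583.9 to 620 in WT. The part of these markers in the histone results was not tested.

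As background, each nucleosome wraps DNA around a core of histones H2A, H2B, H3 and H4, and linker histone H1 binds where the DNA enters and leaves that core. Proliferating cells make most of their histones in S phase from these clustered, usually intronless genes. Their messenger RNAs normally end in a stem-loop in place of a poly(A) tail. The stem-loop is bound by SLBP, which acts in processing, translation and decay of these RNAs, and cleavage just after it uses the U7 small nuclear RNP. Some of the genes can also give polyadenylated transcripts, which end farther downstream, and a poly(A)-selected library samples those forms preferentially. The values below are therefore levels of RNA that reached poly(A)-selected libraries, and the main, stem-loop form of each RNA is not measured by them.

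The stem-loop was searched in GENCODE 29 transcripts on the sense strand, as the 16 bases in capitals below with any base allowed at position 10. It was found in 17 of the 56 members (30.4%), in 16 of the 46 tested members (34.8%) and in 2 of 15244 tested genes outside the family (0.0131%). A missing match says only that these letters are not in the annotated transcript, and 26 of the 56 members are annotated by their coding sequence alone. The stem-loops of 6 genes that recur in the results are shown, each with up to 5 bases on either side and the 16 bases of the stem-loop in capitals.
HIST1H2AC: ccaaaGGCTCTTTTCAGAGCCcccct
HIST1H2BD: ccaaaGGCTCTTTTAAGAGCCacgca
HIST1H2BG: tcaaaGGCTCTTTTCAGAGCCactca
HIST1H3H: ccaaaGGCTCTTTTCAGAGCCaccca
HIST2H2BE: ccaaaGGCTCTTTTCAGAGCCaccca
HIST3H2A: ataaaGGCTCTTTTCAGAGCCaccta
Position 10 was the only base free to vary in the search, so variants at other positions were not sought. At position 10 all matches held C except HIST1H2BC, HIST1H2BD, HIST1H2BF and HIST3H3, which carry C10A. Positions are counted from 1 at the 5′ end of the stem-loop, with the commoner base first. Annotated transcripts ran on past the stem-loop by 1729 bases in HIST2H2BE, by 1114 bases in HIST1H2AC-202, by 769 bases in HIST1H3H and by 390 bases in HIST3H2A. HIST1H2BD-202, by contrast, ends 39 bases after it.

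In B3 the histone cluster genes were higher than in WT. Of the 46 tested members, 28 rose (60.9%), none fell and 18 were not called at an adjusted p under 0.05 in limma, whereas 47.9% of all 16457 tested genes were called, 23.2% higher and 24.6% lower. The difference was positive for 46 of the 46 tested members, with a median of 0.10 on the log2 scale, against 0.00012 over all tested genes. In 31 members the 3 B3 libraries lay above the 3 WT libraries without overlap, and in none below; over all tested genes, groups did not overlap in 53.8%. In bulk RNA, a different share of cells that express these genes and a different amount of RNA per cell cannot be told apart.

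In C4 fewer members moved. Against WT, 15 of the 46 tested members rose, 1 fell and 30 were not called, which is 34.8% called, while the share over all tested genes was 56.2%, with 28.2% higher and 28% lower. The share of members called was thus below that of all genes. The median difference was 0.04 on the log2 scale, against 0.0012 over all tested genes, and 38 members lay on the positive side and 8 on the negative side. Groups did not overlap in 19 members that were above WT and 2 that were below, and in 60.7% of all tested genes. The count for C4 depended on scaling: with every library brought to the same summed antilog, which shifts all differences from WT up by 0.03 in both lines, 26 rose and 1 fell, which is 58.7% called, and 58.2% of all tested genes were called, 35.8% higher and 22.4% lower. Under that scaling the share of members called was thus close to that of all genes.

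Between the knockout lines, C4 was lower than B3 in 23 of the 46 tested members (50%) and higher in none, while 56.4% of all tested genes were called, 28.6% higher and 27.8% lower. The median difference of C4 minus B3 was -0.07 on the log2 scale, against 0.00064 over all tested genes. C4 lay below B3 without overlap in 23 members, against groups that did not overlap in 62.3% of all tested genes. B3 against WT and C4 against WT use the same 3 WT libraries, so the 2 sets of differences are given side by side. In 13 members both lines were called higher than WT, and in 15 members only B3 was called. Among those 15, C4 was called lower than B3 in 11. The 15 were picked by calls on the same B3 and C4 libraries, so this count is not an independent test. The share over all genes with that pattern of calls was not taken. HIST1H2BN and HIST1H3F were called higher in C4 alone, but for neither was the difference between the lines called.

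**Figure D1:**
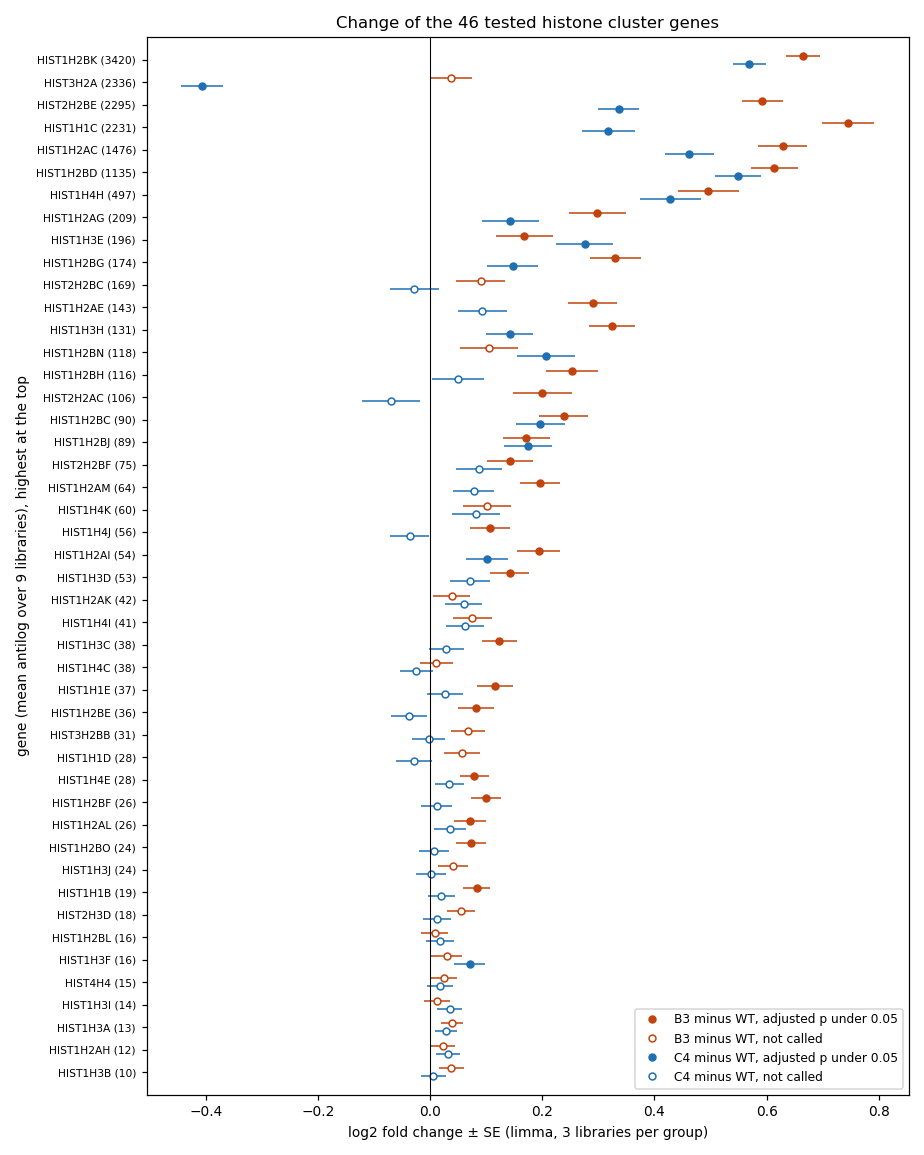
Log2 fold change against WT, ± SE, of each of the 46 tested histone cluster genes in B3 and in C4 (3 libraries per group), with genes from the highest mean antilog at the top to the lowest at the bottom; filled points passed an adjusted p of 0.05 in limma. All 46 B3 points lie right of 0, while HIST3H2A in C4 is the one filled point left of 0, at -0.41.

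The summed antilog of all 56 members was 18595, 18029 and 18779 in B3, 15877, 16011 and 15874 in C4, and 13537, 13184 and 13198 in WT. The libraries of the 3 groups did not overlap, and the mean sums were 1.39 times WT in B3 and 1.20 times WT in C4. These sums were a small part of a library, at 0.0134% to 0.0140% in B3, 0.0117% to 0.0120% in C4 and 0.00957% to 0.00988% in WT. The 6 members with a mean antilog over 500, which are HIST1H2BK, HIST3H2A, HIST2H2BE, HIST1H1C, HIST1H2AC and HIST1H2BD, carried 82.6% of the sum in B3, 80.9% in C4 and 79.3% in WT.

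**Figure D2:**
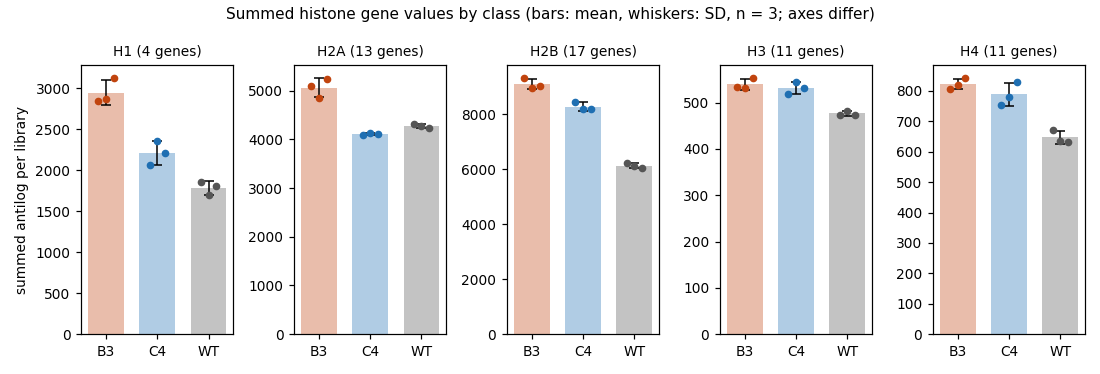
Summed antilog of the members of each histone class in each library (points), with bars for the mean and whiskers for the SD (n = 3) in B3, C4 and WT; the vertical axes differ and start at 0. H1, H2B, H3 and H4 sums lie above WT in both lines, whereas the H2A sum in C4 lies below WT, at 0.963 times its mean. HIST3H2A makes up a large part of the H2A sum, and HIST1H1C nearly all of the H1 sum.

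The largest change in B3 among the members was that of a linker histone gene. HIST1H1C, which encodes a somatic H1 subtype (ENSG00000187837.3, chromosome 6, 26055787 to 26056428, minus strand, GRCh38), had log2 values of 11.43, 11.44 and 11.57 in B3, 10.95, 11.15 and 11.05 in C4, and 10.79, 10.65 and 10.76 in WT. Its 3 groups were fully separate, with B3 highest and WT lowest. It rose by 0.75 ± 0.05 in B3 (1.68-fold, adjusted p = 8.21e-12) and by 0.32 ± 0.05 in C4 (1.25-fold, adjusted p = 3.91e-06), and C4 was lower than B3 (C4 minus B3 -0.43 ± 0.05, adjusted p = 4.33e-08). Its antilog per kb of annotated exon was 4449 in B3, 3308 in C4 and 2654 in WT. The other 3 H1 genes had mean antilogs under 50 and moved little. HIST1H1E had 5.33, 5.25 and 5.27 in B3, 5.19, 5.16 and 5.22 in C4, and 5.14, 5.22 and 5.14 in WT, and HIST1H1B had 4.31, 4.23 and 4.30 in B3, 4.23, 4.23 and 4.20 in C4, and 4.18, 4.20 and 4.22 in WT. Both rose in B3, by 0.12 ± 0.03 and 0.08 ± 0.02 (adjusted p = 0.00459 and 0.007), and neither was called in C4 against WT. All 4 H1 genes were called lower in C4 than in B3, as were 27.8% of all tested genes. The HIST1H1E difference, -0.09 ± 0.03, was a call lost without B3 replicate 1, or C4 replicate 2 (adjusted p 0.0119 to 0.13 over the alternatives). The HIST1H1B difference, -0.06 ± 0.02, was a call lost without B3 replicates 1 or 3, or C4 replicates 2 or 3 (adjusted p 0.00561 to 0.139 over the alternatives), and that of HIST1H1D, -0.09 ± 0.03, was a call lost without B3 replicate 3, or C4 replicate 1 (adjusted p 0.004 to 0.221 over the alternatives). The H1 sum was 1.65 times WT in B3 and 1.24 times WT in C4, and HIST1H1C made up nearly all of it.

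H2A genes included the member that went against the rest. HIST3H2A, which encodes a core histone H2A (ENSG00000181218.5, chromosome 1, 228456979 to 228457873, minus strand, GRCh38), had 11.36, 11.25 and 11.40 in B3, 10.91, 10.86 and 10.91 in C4, and 11.27, 11.33 and 11.30 in WT. B3 and WT overlapped, and all C4 libraries lay below both. It fell by 0.41 ± 0.04 in C4 against WT (0.754 times WT, adjusted p = 2.33e-09) and was lower in C4 than in B3 (C4 minus B3 -0.44 ± 0.04, adjusted p = 4.48e-10), while B3 minus WT was 0.04 ± 0.04 (adjusted p = 0.441). Per kb of annotated exon its antilog was 2889 in B3, 2124 in C4 and 2815 in WT. The H2A sum was 1.19 times WT in B3 and 0.963 times WT in C4, and the sum without HIST3H2A was not taken. HIST3H2A (mean antilog 2336 over 9 libraries) made up a large part of that sum, whose mean was 4277 in WT and 4117 in C4. Its divergent neighbour HIST3H2BB, an H2B gene whose start lies 234 bases away, had 5.06, 4.99 and 5.01 in B3, 4.93, 4.96 and 4.96 in C4, and 4.98, 4.98 and 4.90 in WT, and neither line was called against WT. HIST3H2BB was lower in C4 than in B3 (C4 minus B3 -0.07 ± 0.03, adjusted p = 0.0486), a call lost without B3 replicates 1 or 3, or C4 replicates 1, 2 or 3 (adjusted p 0.0281 to 0.196 over the alternatives).

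Among the other H2A genes, HIST1H2AC had the largest increase. This gene (ENSG00000180573.9, chromosome 6, 26124145 to 26139116, plus strand) had log2 values of 10.77, 10.72 and 10.82 in B3, 10.55, 10.66 and 10.59 in C4, and 10.23, 10.08 and 10.11 in WT. No groups overlapped, and B3 was highest. It rose by 0.63 ± 0.04 in B3 (1.55-fold, adjusted p = 4.48e-11) and by 0.46 ± 0.04 in C4 (1.38-fold, adjusted p = 4.3e-09), with C4 below B3 (C4 minus B3 -0.17 ± 0.04, adjusted p = 0.0024). HIST1H2AG had 7.80, 7.87 and 7.89 in B3, 7.68, 7.70 and 7.71 in C4, and 7.68, 7.47 and 7.51 in WT. One WT library reached the C4 range, and the increase was 0.30 ± 0.05 in B3 and 0.14 ± 0.05 in C4. The C4 increase was a call lost without C4 replicate 3, or WT replicates 2 or 3 (adjusted p 0.000986 to 0.134 over the alternatives). C4 was below B3 (C4 minus B3 -0.16 ± 0.05), a call lost without B3 replicate 3 (adjusted p 0.00432 to 0.0542 over the alternatives). HIST1H2AE had 7.30, 7.36 and 7.29 in B3, 7.14, 7.17 and 7.05 in C4, and 7.02, 7.05 and 7.02 in WT, an increase of 0.29 ± 0.04 in B3 without overlap, while C4 overlapped WT and was not called.

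HIST2H2AC had 6.96, 6.76 and 6.93 in B3, 6.72, 6.61 and 6.52 in C4, and 6.72, 6.64 and 6.69 in WT. B3 lay above WT by 0.20 ± 0.05 (adjusted p = 0.003), C4 overlapped WT, and C4 was below B3 (C4 minus B3 -0.27 ± 0.05, adjusted p = 0.000123). HIST1H2AM had 6.12, 6.08 and 6.10 in B3, 6.04, 5.94 and 5.97 in C4, and 5.86, 5.92 and 5.93 in WT. It rose by 0.20 ± 0.04 in B3 and was not called in C4, and C4 was lower than B3 (C4 minus B3 -0.12 ± 0.04), a call lost without C4 replicate 2 (adjusted p 0.00274 to 0.0564 over the alternatives). HIST1H2AI had 5.84, 5.90 and 5.76 in B3, 5.78, 5.77 and 5.68 in C4, and 5.62, 5.67 and 5.63 in WT. Its increase of 0.19 ± 0.04 in B3 was called. That of 0.10 ± 0.04 in C4 was a call lost without C4 replicates 1 or 2, or WT replicates 1 or 3 (adjusted p 0.00546 to 0.107 over the alternatives), and C4 was lower than B3 (C4 minus B3 -0.09 ± 0.04), a call lost without B3 replicates 1 or 2, or C4 replicate 3, or WT replicate 3 (adjusted p 0.00988 to 0.242 over the alternatives). HIST1H2AL, at 4.67, 4.78 and 4.73 in B3, 4.66, 4.72 and 4.68 in C4, and 4.67, 4.66 and 4.64 in WT, rose by 0.07 ± 0.03 in B3, a call lost without B3 replicates 2 or 3, or WT replicates 1, 2 or 3 (adjusted p 0.00485 to 0.247 over the alternatives), and was not called in C4. HIST1H2AM shares 84% of its 100-base windows with the overlapping HIST1H3J, and HIST1H2AI shares 57.7% with HIST1H2AJ, so the authors' counting may have divided or dropped their reads. The same holds for HIST1H2AL, which overlaps HIST1H2BN on the same strand.

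**Figure D3:**
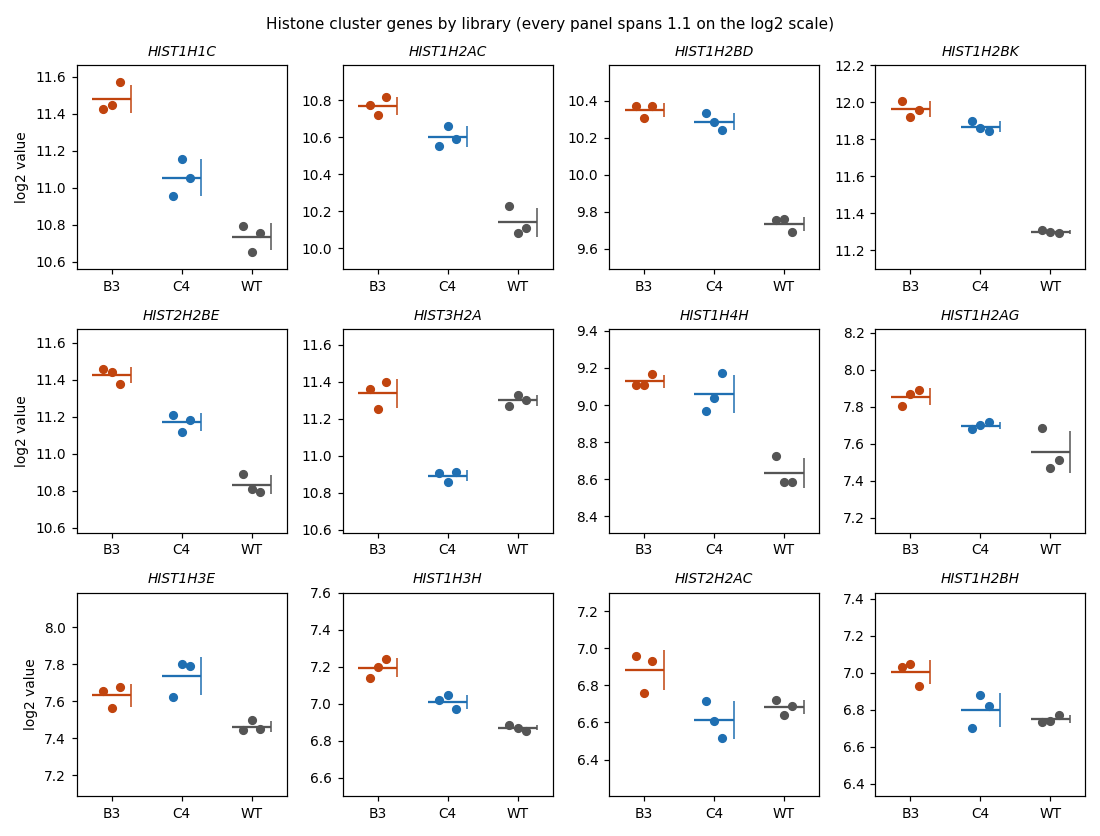
Log2 value of 12 histone cluster genes in each library (points), with the group mean (horizontal line) and SD (vertical line, n = 3) for B3, C4 and WT; every panel spans 1.1 on the log2 scale. HIST1H1C, HIST1H2AC, HIST1H2BK and HIST2H2BE show 3 separate groups with B3 highest, while HIST3H2A shows C4 alone below the other two.

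The H2B sum was 1.49 times WT in B3 and 1.35 times WT in C4. HIST1H2BK (ENSG00000197903.7, chromosome 6, 27146418 to 27146798, minus strand) had the highest antilog per kb of annotated exon among the members, at 10490 in B3, 9820 in C4 and 6617 in WT. It had log2 values of 12.01, 11.92 and 11.96 in B3, 11.90, 11.86 and 11.84 in C4, and 11.31, 11.30 and 11.29 in WT. WT libraries lay close together, both lines lay clear of them, and C4 lay just under B3. The increase was 0.66 ± 0.03 in B3 (1.59-fold, adjusted p = 1.79e-14) and 0.57 ± 0.03 in C4 (1.48-fold, adjusted p = 1.28e-13). C4 was lower than B3 (C4 minus B3 -0.10 ± 0.03, adjusted p = 0.00933), a call lost without B3 replicate 1 (adjusted p 0.005 to 0.0766 over the alternatives). Its annotation holds the coding sequence alone, and 28.4% of its 100-base windows occur in H2BFS.

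HIST1H2BD (ENSG00000158373.8, chromosome 6, 26158146 to 26171349, plus strand) had 10.37, 10.30 and 10.37 in B3, 10.33, 10.28 and 10.24 in C4, and 9.75, 9.76 and 9.69 in WT. B3 and C4 overlapped each other and lay above WT. The increase was 0.61 ± 0.04 in B3 (1.53-fold, adjusted p = 2.34e-11) and 0.55 ± 0.04 in C4 (1.46-fold, adjusted p = 7.6e-11), and C4 minus B3 was -0.06 ± 0.04 (adjusted p = 0.192). HIST2H2BE (ENSG00000184678.10, chromosome 1, 149884459 to 149886652, minus strand) had 11.46, 11.44 and 11.38 in B3, 11.21, 11.12 and 11.18 in C4, and 10.89, 10.81 and 10.80 in WT. Its groups were separate, with an increase of 0.59 ± 0.04 in B3 (1.51-fold, adjusted p = 5.49e-12) and of 0.34 ± 0.04 in C4 (1.26-fold, adjusted p = 3.85e-08), and C4 below B3 (C4 minus B3 -0.26 ± 0.04, adjusted p = 2.26e-06).

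The other H2B genes moved less. HIST1H2BG had 7.66, 7.54 and 7.61 in B3, 7.38, 7.44 and 7.44 in C4, and 7.21, 7.32 and 7.28 in WT, all groups being separate; it rose by 0.33 ± 0.05 in B3 and by 0.15 ± 0.05 in C4, a call lost without WT replicate 1 (adjusted p 0.00246 to 0.0508 over the alternatives). HIST1H2BH had 7.03, 7.05 and 6.93 in B3, 6.70, 6.88 and 6.82 in C4, and 6.73, 6.74 and 6.77 in WT. It rose by 0.25 ± 0.05 in B3, while C4 overlapped WT and was lower than B3 (C4 minus B3 -0.20 ± 0.05, adjusted p = 0.000688). HIST1H2BC, the divergent neighbour of HIST1H2AC, had 6.53, 6.53 and 6.68 in B3, 6.51, 6.61 and 6.49 in C4, and 6.34, 6.32 and 6.36 in WT. HIST1H2BJ had 6.53, 6.57 and 6.46 in B3, 6.61, 6.52 and 6.45 in C4, and 6.33, 6.36 and 6.36 in WT. In both of these genes B3 and C4 overlapped each other and lay above WT, with increases of 0.24 ± 0.04 in B3 and 0.20 ± 0.04 in C4 for HIST1H2BC and of 0.17 ± 0.04 in B3 and 0.17 ± 0.04 in C4 for HIST1H2BJ. HIST1H2BN had 6.82, 6.85 and 6.96 in B3, 7.02, 6.97 and 6.95 in C4, and 6.89, 6.66 and 6.77 in WT, a rise of 0.21 ± 0.05 in C4 (adjusted p = 0.00142). B3 minus WT was 0.11 ± 0.05 for that gene (adjusted p = 0.0962), which was called without WT replicate 1 and with libraries at the same summed antilog (adjusted p 0.00825 to 0.49 over the alternatives). HIST1H2BN overlaps HIST1H2AK on the opposite strand, and the strand setting of the counting is not given in the sources used here, so reads of the 2 genes cannot be told apart. HIST1H2BN also overlaps HIST1H2AL, on the same strand, and how the authors' counting treated their shared bases is not known.

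HIST2H2BF had 6.28, 6.27 and 6.32 in B3, 6.16, 6.31 and 6.23 in C4, and 6.09, 6.19 and 6.16 in WT, an increase of 0.14 ± 0.04 in B3 (adjusted p = 0.00599), with C4 overlapping WT. HIST2H2BC, annotated as a transcribed unprocessed pseudogene, had 7.51, 7.43 and 7.48 in B3, 7.29, 7.38 and 7.39 in C4, and 7.39, 7.38 and 7.37 in WT. Neither line was called against WT, and C4 was lower than B3 (C4 minus B3 -0.12 ± 0.04, adjusted p = 0.025), a call lost without B3 replicates 1 or 3, or C4 replicate 1 (adjusted p 0.00706 to 0.135 over the alternatives). At low level, HIST1H2BE had 5.27, 5.20 and 5.26 in B3, 5.16, 5.09 and 5.13 in C4, and 5.11, 5.17 and 5.21 in WT, and HIST1H2BF had 4.74, 4.78 and 4.76 in B3, 4.67, 4.66 and 4.69 in C4, and 4.71, 4.63 and 4.65 in WT. HIST1H2BO had 4.68, 4.60 and 4.65 in B3, 4.60, 4.59 and 4.54 in C4, and 4.55, 4.58 and 4.57 in WT. All 3 rose in B3, by 0.08 ± 0.03, 0.10 ± 0.03 and 0.07 ± 0.03, were not called in C4 against WT and were called lower in C4 than in B3. The B3 increase of HIST1H2BE was a call lost without B3 replicates 1 or 3, or WT replicates 1 or 2 (adjusted p 0.00483 to 0.2 over the alternatives). For HIST1H2BO the B3 increase was a call lost without B3 replicates 1 or 3, or WT replicate 1 (adjusted p 0.00226 to 0.137 over the alternatives), and the difference between the lines was a call lost without B3 replicates 1 or 3, or C4 replicates 2 or 3 (adjusted p 0.0149 to 0.18 over the alternatives).

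The H3 sum was 1.13 times WT in B3 and 1.11 times WT in C4. HIST1H3E had 7.66, 7.56 and 7.68 in B3, 7.62, 7.80 and 7.79 in C4, and 7.44, 7.50 and 7.45 in WT. Both lines lay above WT, by 0.17 ± 0.05 in B3 (adjusted p = 0.00852) and by 0.28 ± 0.05 in C4 (adjusted p = 6.43e-05). HIST1H3H had 7.14, 7.20 and 7.24 in B3, 7.02, 7.04 and 6.97 in C4, and 6.88, 6.87 and 6.86 in WT, with 3 separate groups and an increase of 0.32 ± 0.04 in B3 and 0.14 ± 0.04 in C4. HIST1H3D had 5.75, 5.83 and 5.83 in B3, 5.76, 5.76 and 5.67 in C4, and 5.66, 5.66 and 5.67 in WT; it rose by 0.14 ± 0.03 in B3, was not called in C4, and shares all of its 100-base windows with the overlapping annotation AL031777.3. HIST1H3C had 5.30, 5.37 and 5.34 in B3, 5.30, 5.22 and 5.21 in C4, and 5.19, 5.23 and 5.22 in WT, a rise of 0.12 ± 0.03 in B3 (adjusted p = 0.0024) that was not called in C4; C4 was lower than B3 (C4 minus B3 -0.09 ± 0.03), a call lost without B3 replicate 2, or C4 replicates 2 or 3 (adjusted p 0.00299 to 0.0734 over the alternatives). HIST1H3F had 3.98, 4.01 and 3.97 in B3, 4.11, 3.98 and 3.99 in C4, and 3.94, 3.96 and 3.97 in WT. It was called in C4 alone, by 0.07 ± 0.03, a call lost without C4 replicate 1, or WT replicates 1 or 2 (adjusted p 0.00273 to 0.316 over the alternatives). The other 5 tested H3 genes, with mean antilogs under 50, were called in neither line against WT.

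Of 7 tested H4 genes, HIST1H4H had the highest antilog per kb, 258.6 in B3, 246.7 in C4 and 183.3 in WT. It (ENSG00000158406.4, chromosome 6, 26277609 to 26285638, minus strand) had 9.11, 9.11 and 9.17 in B3, 8.97, 9.04 and 9.17 in C4, and 8.73, 8.58 and 8.59 in WT. B3 and C4 overlapped each other and lay above WT, by 0.50 ± 0.05 in B3 (1.41-fold, adjusted p = 6.82e-08) and 0.43 ± 0.05 in C4 (1.35-fold, adjusted p = 3.74e-07). HIST1H4J had 5.87, 5.86 and 5.94 in B3, 5.73, 5.79 and 5.71 in C4, and 5.79, 5.80 and 5.75 in WT. Its rise of 0.11 ± 0.03 in B3 was a call lost without B3 replicate 3, or WT replicate 3 (adjusted p 0.00242 to 0.0879 over the alternatives), and C4 was lower than B3 (C4 minus B3 -0.14 ± 0.03, adjusted p = 0.00124). HIST1H4J shares 77.7% of its windows with HIST1H4K, which shares 100% in turn, so their values are uncertain. HIST1H4E had 4.82, 4.84 and 4.86 in B3, 4.79, 4.81 and 4.77 in C4, and 4.74, 4.78 and 4.75 in WT, a rise of 0.08 ± 0.03 in B3, a call lost without B3 replicate 3, or WT replicate 1 (adjusted p 0.00112 to 0.0575 over the alternatives). HIST4H4, the one gene of the HIST4 cluster on chromosome 12, had 3.97, 3.92 and 3.94 in B3, 3.96, 3.94 and 3.91 in C4, and 3.89, 3.94 and 3.92 in WT. The 3 groups overlapped, and HIST4H4 was called in no comparison, with 0.02 ± 0.02 for B3 minus WT and 0.02 ± 0.02 for C4 minus WT.

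The size of a change went with the level of the gene. Of 22 tested members with a mean antilog of 10 to 50, 8 rose in B3 and 1 in C4, while 4.18% of all 2128 genes at that level were called higher in B3 and 8.18% in C4. The largest change of those members in B3 was 0.124 on the log2 scale. From 50 to 500, 15 of 18 rose in B3 and 9 in C4, where the shares called higher over all 2730 genes were 13.8% in B3 and 20.4% in C4, with median differences of 0.20 in B3 and 0.10 in C4. Over 500, 5 of 6 rose in each line and HIST3H2A fell in C4, and of all 11599 genes 28.9% were called higher in B3, and 33.7% higher and 32.5% lower in C4. The 6 members had medians of 0.62 in B3 and 0.40 in C4. The median SD within a group also varied with level, at 0.03 from 10 to 50, 0.05 from 50 to 500 and 0.04 over 500 across all tested genes. Leaving out a single library in turn ended 4 of the 8 calls from 10 to 50 in B3 against WT, the 1 in C4 against WT and 6 of the 8 in C4 against B3, where 7.66% of all genes at that level were called lower. In the same fit, among the 24 members at a mean antilog of 50 or more, 20 rose in B3 (52.9% of 14329 genes at that level were called, 26.1% higher and 26.9% lower), 14 rose and 1 fell in C4 (61.7%, 31.2% higher and 30.5% lower), and 15 were lower in C4 than in B3 (62.1%, 31.3% higher and 30.8% lower). Groups did not overlap in 21 of the 24 in B3 against WT (58.3% of all such genes), in 17 in C4 against WT (65.5%) and in 14 in C4 against B3 (67.5%). Leaving out a library ended 1 of 20 calls at that level in B3 against WT, 3 of 15 in C4 against WT and 5 of 15 in C4 against B3. The transform behind the deposited log2 values is not given in the sources used here, and it could understate changes of low genes.

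Members with an annotated polyadenylated end had a higher median level than the others. A poly(A) signal (AATAAA or ATTAAA on the sense strand in the last 40 bases of an annotated transcript) was found in 17 members, all of them tested. Their median antilog per kb of exon was 93.2, against 49.3 for the other 29 tested members. All 18 tested members whose models hold coding sequence alone are among those 29. A signal beyond the coding sequence cannot be found in such models, so being in the 29 does not show that a polyadenylated end is missing. The exon lengths of these models also leave out any untranslated sequence, so the per-kb medians rest on models of different kinds. In B3, 14 of the 17 rose, with a median difference of 0.17, and in C4, 10 rose and 1 fell, with a median of 0.14. Of the other 29, 14 rose in B3 (median 0.07) and 5 in C4 (median 0.03). Over all tested genes the shares called higher were 23.2% in B3 and 28.2% in C4, and 26.1% in B3 and 31.2% in C4 at a mean antilog of 50 or more. The 17 also lay higher in level, with a median mean antilog of 131, against 31.5 for the other 29, and the part of level in their counts was not tested. HIST1H1C and HIST1H2BK, the largest changes in B3, are among those 29, and their models hold coding sequence alone. Per-length values rest on GENCODE 29, while the annotation used by the authors is not given in the sources used here.

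**Figure D4:**
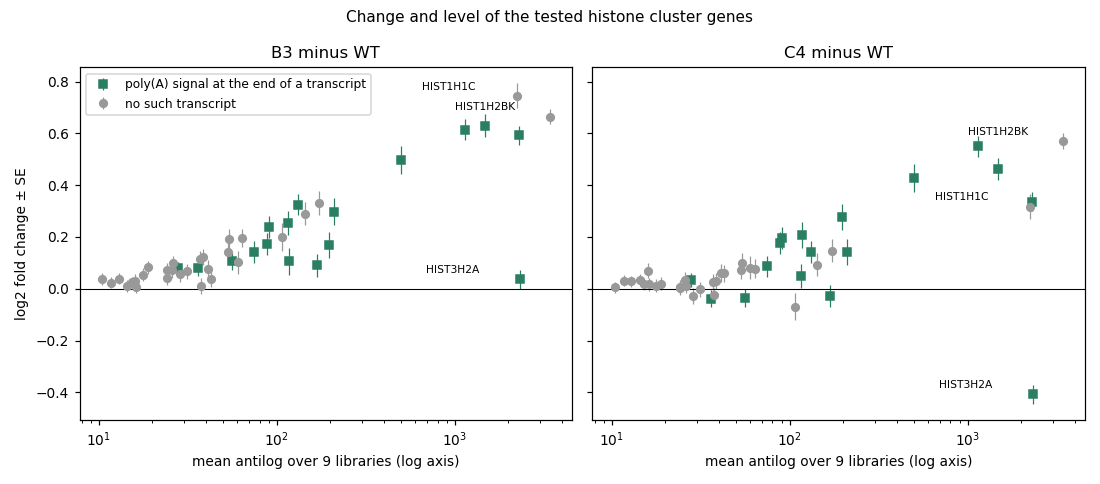
Log2 fold change ± SE against WT (left B3, right C4; 3 libraries per group) plotted against the mean antilog over 9 libraries on a log axis for the 46 tested members; squares mark the 17 genes with a poly(A) signal at the end of an annotated transcript. Changes widen with level in both panels, and HIST3H2A stands near 0 in B3 and at -0.41 in C4.

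By cluster, HIST1 spans chromosome 6 from 26020490 to 27893843 and holds 46 members, of which 38 were tested. Of these, 25 rose in B3 and 14 in C4, beside 23.2% of all tested genes called higher in B3 and 28.2% in C4. The HIST2 cluster on chromosome 1 (149782689 to 149887916) had 5 tested of 6 members, with 3 higher in B3 and 1 in C4. The HIST3 cluster, also on chromosome 1 (228424845 to 228460470), had 2 tested of 3 members, with none called in B3 and 1 lower in C4. Sums were 1.48 times WT in B3 and 1.32 times WT in C4 for HIST1, 1.44 times WT in B3 and 1.22 times WT in C4 for HIST2, and 1.03 times WT in B3 and 0.758 times WT in C4 for HIST3. HIST3H2A made up nearly all of the HIST3 sum.

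Several members start close to a partner on the opposite strand. HIST1H2BK and HIST1H2AH start 331 bases apart on opposite strands, and HIST1H2AH had differences from WT of 0.02 ± 0.02 in B3 and 0.03 ± 0.02 in C4, neither called. HIST2H2BE and HIST2H2AC start 323 bases apart, with 0.59 and 0.20 in B3 and 0.34 and -0.07 in C4. For HIST1H2BG and HIST1H2AE, 283 bases apart, the differences were 0.33 and 0.29 in B3 and 0.15 and 0.09 in C4. The difference between partners was not tested.

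Promoter windows of 250 bases before the RefSeq start (GRCh38.p14) were matched to 50 of the 56 members by symbol and position, and searched for 3 motifs. TATAAA on the sense strand, the TATA box, was in 60% of members and 6.8% of 35116 promoters in all. The octamer ATTTGCAT on either strand, bound by POU2F1, was in 44% of members and 1.63% of all promoters. It was in 21 of 28 H2A and H2B promoters (75%) and in 1 of 22 of the others (4.55%). CCAAT on either strand, the box bound by NF-Y, was in 86% of members and 32% of all. Windows of divergent partners can overlap and hold the same match, and 20 of the 50 windows overlap that of another member. Of the 22 windows with an octamer, 14 overlap another. Among tested H2A and H2B genes with a promoter, 16 of 16 with the octamer and 2 of 7 without it rose in B3, with median differences of 0.22 and 0.07, while 23.2% of all tested genes were called higher. In C4, 7 of the 16 with the octamer were higher, with a median of 0.09. Of the 7 without it, 3 were higher and 1 lower, with a median of 0.06. Over all tested genes, 28.2% were called higher and 28% lower in C4. The medians with and without the octamer lay closer together in C4 than in B3. These are counts of letters and show no binding, and the part of level in them was not tested.

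The promoters of 4 of the highest members are shown because HIST3H2A fell in C4 while the other 3 rose in both lines. HIST1H2BK and HIST2H2BE hold TATAAA and an octamer near the start, and HIST1H1C and HIST3H2A match neither set of letters. HIST1H1C does hold the letters tatatata near the start, which a search for exactly TATAAA misses. Capitals mark the 3 motifs on either strand (TATAAA on the sense strand only), and no marked motifs overlap. Each sequence is written 5′ to 3′ along its gene, on the minus strand of GRCh38.p14, and ends at the base before the RefSeq start. Windows are chr6:26056471-26056720 for HIST1H1C, chr6:27146859-27147108 for HIST1H2BK, chr1:149886683-149886932 for HIST2H2BE and chr1:228457874-228458123 for HIST3H2A.
HIST1H1C: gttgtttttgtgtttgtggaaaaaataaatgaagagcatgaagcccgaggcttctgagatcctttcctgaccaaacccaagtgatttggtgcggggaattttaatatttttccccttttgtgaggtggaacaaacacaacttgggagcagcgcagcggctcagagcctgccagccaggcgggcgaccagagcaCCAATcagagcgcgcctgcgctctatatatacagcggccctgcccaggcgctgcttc
HIST1H2BK: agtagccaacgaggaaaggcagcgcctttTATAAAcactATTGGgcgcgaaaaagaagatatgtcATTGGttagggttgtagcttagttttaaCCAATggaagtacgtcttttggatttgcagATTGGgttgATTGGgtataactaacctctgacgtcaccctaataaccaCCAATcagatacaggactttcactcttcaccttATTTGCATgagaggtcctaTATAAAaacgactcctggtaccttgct
HIST2H2BE: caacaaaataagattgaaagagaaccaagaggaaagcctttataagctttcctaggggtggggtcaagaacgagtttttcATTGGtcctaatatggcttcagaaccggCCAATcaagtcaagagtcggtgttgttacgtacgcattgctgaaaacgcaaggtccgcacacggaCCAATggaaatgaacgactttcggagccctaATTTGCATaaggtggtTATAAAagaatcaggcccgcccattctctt
HIST3H2A: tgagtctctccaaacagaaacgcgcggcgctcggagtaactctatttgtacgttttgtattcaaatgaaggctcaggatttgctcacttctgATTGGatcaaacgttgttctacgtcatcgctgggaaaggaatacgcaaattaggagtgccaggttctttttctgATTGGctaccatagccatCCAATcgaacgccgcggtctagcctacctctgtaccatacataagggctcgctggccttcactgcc
The octamer begins 46 bases before the start in HIST1H2BK and in HIST2H2BE, and the TATA box begins 27 bases before it in HIST1H2BK and 30 bases before it in HIST2H2BE. CCAAT matches nearest the start begin 57 bases before it in HIST1H1C and 66 bases before it in HIST3H2A.

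Histone variant genes outside the clusters, which give polyadenylated RNA and are mostly made outside S phase as well, were tested beside the cluster genes. Of 11 such genes, 3 rose and 3 fell in B3 and 1 rose and 5 fell in C4, with medians of -0.04 in both. Over all tested genes, 23.2% were called higher and 24.6% lower in B3, and 28.2% higher and 28% lower in C4. H2AFX, the H2A form phosphorylated at DNA breaks, rose by 0.41 ± 0.03 in B3 (adjusted p = 7.42e-12), was not called in C4, where it differed by 0.01 ± 0.03, and was lower in C4 than in B3 (C4 minus B3 -0.40 ± 0.03). CENPA, the centromeric H3, rose by 0.32 ± 0.03 in B3 and differed by 0.01 ± 0.03 in C4. H2AFZ, an H2A variant found at promoters, rose by 0.14 ± 0.02 in B3 and fell by 0.17 ± 0.02 in C4. The replacement linker histones H1F0 and H1FX fell in both lines. H1F0 fell by 0.18 ± 0.02 in B3 and fell by 0.47 ± 0.02 in C4, and H1FX fell by 0.16 ± 0.03 in B3 and fell by 0.36 ± 0.03 in C4. H2AFJ, which lies next to HIST4H4, had log2 values of 6.15, 6.15 and 6.11 in B3, 6.15, 6.13 and 6.14 in C4, and 6.95, 7.05 and 6.82 in WT. All 6 knockout libraries lay below WT, and H2AFJ fell by 0.81 ± 0.05 in B3 (adjusted p = 9.61e-13) and fell by 0.80 ± 0.05 in C4 (adjusted p = 4.24e-13). H3F3B, the replacement H3, fell by 0.07 ± 0.03 in C4, a call lost without B3 replicate 1, or C4 replicates 2 or 3, or WT replicates 2 or 3 (adjusted p 0.00468 to 0.201 over the alternatives), and was not called in B3.

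**Figure D5:**
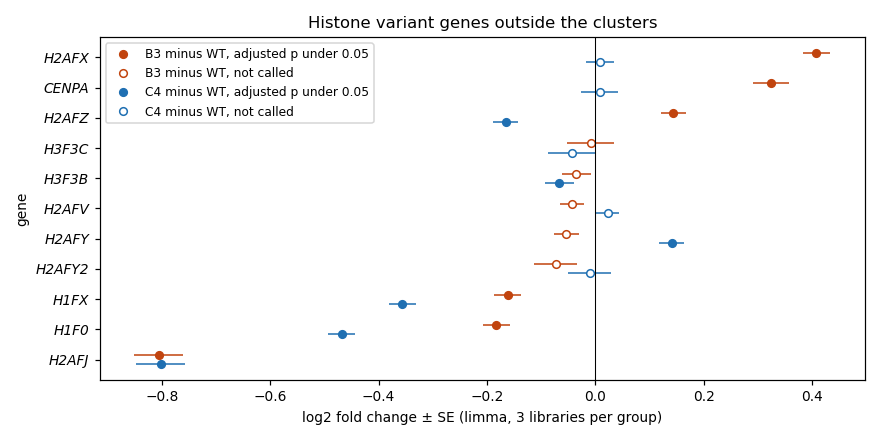
Log2 fold change against WT, ± SE, of 11 histone variant genes outside the clusters in B3 and C4 (3 libraries per group); filled points passed an adjusted p of 0.05 in limma. H2AFX and CENPA are called higher in B3, at 0.41 and 0.32, and lie near 0 in C4, and H2AFJ lies near -0.81 in B3 and -0.80 in C4.

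Of 24 genes for histone transcription and RNA processing, 9 rose and 5 fell in B3 (median 0.02), 6 rose and 6 fell in C4 (median 0.0028), and C4 was higher than B3 in 8 and lower in 8. Shares over all tested genes were 23.2% higher and 24.6% lower in B3, and 28.2% higher and 28% lower in C4. For C4 against B3 they were 28.6% higher and 27.8% lower. SLBP, the stem-loop binding protein, fell by 0.07 ± 0.02 in C4, a call lost without C4 replicate 3, or WT replicates 2 or 3 (adjusted p 0.0082 to 0.149 over the alternatives), and differed by -0.05 ± 0.02 in B3 (adjusted p = 0.0853). NPAT, the cyclin E/CDK2 target that activates histone genes, rose by 0.13 ± 0.04 in B3, a call lost without B3 replicate 1, or WT replicate 3 (adjusted p 0.00109 to 0.0624 over the alternatives), and differed by 0.06 ± 0.04 in C4 (adjusted p = 0.198). CASP8AP2, a component of the histone locus body, fell by 0.57 ± 0.03 in B3 and fell by 0.08 ± 0.03 in C4, the C4 fall being a call lost without C4 replicate 3, or WT replicate 1 (adjusted p 0.0143 to 0.149 over the alternatives). ZNF473, which acts in U7-dependent cleavage, fell by 0.20 ± 0.03 in B3 and fell by 0.30 ± 0.03 in C4. LSM10 of the U7 particle rose by 0.18 ± 0.03 in B3 and differed by -0.03 ± 0.03 in C4.

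Of 18 histone chaperone genes, 9 rose and 1 fell in B3 (median 0.05), 7 rose and 6 fell in C4 (median 0.03), and C4 was higher than B3 in 3 and lower in 11. ASF1A and ASF1B, which hand H3 and H4 to assembly factors, rose by 0.35 ± 0.03 and 0.23 ± 0.03 in B3 and by 0.10 ± 0.03 and 0.25 ± 0.03 in C4. NASP, a chaperone that keeps a reserve of soluble H3 and H4, rose by 0.20 ± 0.02 in B3 and differed by 0.04 ± 0.02 in C4. Among 24 S-phase genes, 18 rose and 2 fell in B3 (median 0.16), while 6 rose and 8 fell in C4 (median 0.02). C4 was higher than B3 in 1 of them and lower in 19, with a median of -0.18. For both lists, the shares of all tested genes were 23.2% higher and 24.6% lower in B3, and 28.2% higher and 28% lower in C4. For C4 against B3 those shares were 28.6% higher and 27.8% lower. CCNA2, cyclin A, rose by 0.39 ± 0.03 in B3 and 0.18 ± 0.03 in C4. MCM6, a subunit of the replicative helicase, differed by 0.02 ± 0.02 in B3 (adjusted p = 0.528) and fell by 0.43 ± 0.02 in C4 (adjusted p = 2.43e-13). The S-phase genes moved in B3 beside the histone genes, and their part in the histone values was not tested.

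Neighbouring genes that are not histones gave the local background of each cluster. Beside their counts, 23.2% of all tested genes were called higher and 24.6% lower in B3, and 28.2% higher and 28% lower in C4. Around HIST1, none of 22 tested neighbours rose and 6 fell in B3, and 7 rose and 5 fell in C4. BTN3A2, a butyrophilin gene, fell by 0.17 ± 0.03 in B3 and rose by 0.27 ± 0.03 in C4. Around HIST2, 4 of 8 rose and 2 fell in B3, and 3 rose and 3 fell in C4. Around HIST3, 4 of 11 rose and 2 fell in B3, and 5 rose and 1 fell in C4. The neighbours of HIST4H4 were different in B3, where none of 12 rose and 9 fell (median -0.20), against 4 higher and 4 lower in C4 (median 0.0015). There PLBD1 fell by 1.66 ± 0.06 in B3 and fell by 1.77 ± 0.06 in C4, and STRAP fell by 0.32 ± 0.03 in B3 and differed by 0.01 ± 0.03 in C4.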

How the data were processed

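Polyadenylated RNA was measured in 9 libraries of LN229 cells, 3 per group. The deposited table holds log2 values made by the authors, with 1 column per library. The submitters' processing notes name the tools Subread 1.6.3, STAR 2.7.3a and DESeq2 and build hg38, without saying which did what. The transform, annotation and strand setting are not given in the sources used here. Values were used as deposited.

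One limma 3.58.1 model (R 4.3.3) of the 3 groups was fitted to all libraries, with variances moderated by empirical Bayes along a trend in level. It covered the 16457 genes whose mean antilog reached 10, and two-sided p-values were Benjamini-Hochberg adjusted over all of them. A gene was called at an adjusted p under 0.05, and "rose" or "fell" marks a call. The fit was tested on simulated data. Symbols were matched to GENCODE 29 (GRCh38), which held 92.9% of tested symbols and all 56 members. Promoters come from a RefSeq table.

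Any tested member could be named. Library values were given for members at a mean antilog of at least 50 that were called, for HIST4H4, HIST3H2A and members called in 1 line against WT, and for a few partners. From each gene list, up to 4 called genes were named for each comparison, with a fixed few such as SLBP and NPAT. One gene that the rule names is not reported here. Members and lists were chosen with earlier results of these data known. Alternatives were other filters, pseudocounts added to the antilog, scalings, moderation and thresholds, fits of the compared groups only, a replicate block, and leaving out each library. Replicate numbers in the labels are shared across groups, but same-numbered libraries did not deviate together (correlations of -0.229 to 0.016), so they were not treated as pairs. The plan named count tests in case the table held counts. As it holds log2 values, these were not run.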

Additional observations from a re-analysis of the deposited data

Results flagged for a closer look

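The difference between the knockout lines (C4 minus B3, on the log2 scale) passed limma's test for 23 of the 46 tested members (50%). It passed for 14 of the other genes named above as well, and each is flagged for that difference. Over all tested genes, 56.4% were called, 28.6% higher and 27.8% lower. All 23 members were lower in C4 than in B3. Leaving out a single library in turn ended 6 of the 8 member calls at a mean antilog of 10 to 50. It ended 5 of the 15 at 50 or more. Among H1 genes the differences were -0.43 for HIST1H1C, -0.09 for HIST1H1D, -0.09 for HIST1H1E and -0.06 for HIST1H1B. Among H2A genes, HIST3H2A differed by -0.44, HIST2H2AC by -0.27, HIST1H2AE by -0.2 and HIST1H2AC by -0.17. HIST1H2AG differed by -0.16, HIST1H2AM by -0.12 and HIST1H2AI by -0.09. Of the H2B genes, HIST2H2BE was at -0.26, HIST1H2BH at -0.2, HIST1H2BG at -0.18 and HIST1H2BK at -0.1. The lower H2B genes were HIST1H2BE and HIST2H2BC at -0.12, HIST1H2BF at -0.09, and HIST1H2BO and HIST3H2BB at -0.07. For H3 and H4, HIST1H3H differed by -0.18, HIST1H3C by -0.09 and HIST1H4J by -0.14.

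Of the 14 other genes, 11 were lower in C4 than in B3. These were MCM6 at -0.45 and CCNA2 at -0.2 among S-phase genes, and ASF1A at -0.25 and NASP at -0.16 among chaperones. They also included LSM10 at -0.21 and ZNF473 at -0.1 among processing factors, a ZNF473 call lost without B3 replicate 2 or C4 replicate 1. Histone variants among them were H2AFX at -0.4, CENPA at -0.32, H2AFZ at -0.31, H1F0 at -0.29 and H1FX at -0.19. The 3 genes higher in C4 were CASP8AP2 at 0.49, BTN3A2 at 0.44 and STRAP at 0.33.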

How the results depend on the processing

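The counts of members called were 28 in B3 against WT, 16 in C4 against WT and 23 in C4 against B3. They were 60.9%, 34.8% and 50% of the 46 tested, against 47.9%, 56.2% and 56.4% of all tested genes. With every library scaled to the same summed antilog, C4 against WT gave 27 (58.7%, against 58.2% of all tested genes) and B3 against WT 40 (87%, against 51.9%). Refitting from a mean antilog of 50 up, which leaves 24 members, gave 14 in C4 against B3 (58.3%, against 62.6%), and an adjusted p under 0.01 also gave 14 there (30.4%, against 46.5%). Requiring an absolute change of at least 0.25 gave 11 in B3 against WT (23.9%, against 9.31%), 8 in C4 against WT (17.4%, against 15.2%) and 4 in C4 against B3 (8.7%, against 16.3%). Leaving out each library gave 23 to 29, 13 to 17 and 18 to 23 in those 3 comparisons; without B3 replicate 3 or C4 replicate 1, 1 member was higher in C4 than in B3. The shares over all tested genes are not given for the fits with a library left out. A replicate block gave 29, 16 and 22 in the same order, although same-numbered libraries did not deviate together. Those were 63%, 34.8% and 47.8% of the tested members, against 45.6%, 54.5% and 54.8% of all tested genes. Both ARNT2 results kept their direction and side of the threshold under every alternative run.

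Single genes gave 3429 checks, of which 3189 kept direction and call, 178 lost the call, 30 gained one and 32 changed sign. The sign changes concerned differences near 0 that were not called. With the same summed antilog, C4 minus WT was 0.0003755 for HIST1H1D, 0.001092 for HIST2H2BC, 0.0263 for HIST3H2BB and 0.002763 for LSM10. Under that scaling, C4 minus B3 was -0.001176 for HIST1H2BJ and -0.001124 for H2AFJ. With the same median, the values were 0.0003535 for HIST3H2BB in C4 minus WT, and -0.005484 for HIST1H2BJ and -0.005432 for H2AFJ in C4 minus B3. Over the left-out libraries, C4 minus WT ran from -0.01414 to 0.04071 for CENPA, -0.01282 to 0.03227 for H2AFX, -0.005835 to 0.03533 for HIST1H2BF, -0.005537 to 0.02527 for HIST1H2BO, -0.0002791 to 0.04682 for HIST1H3C, -0.04684 to 0.005746 for HIST2H2BC, -0.03123 to 0.01262 for HIST3H2BB and -0.01907 to 0.02472 for STRAP. C4 minus B3 ran likewise from -0.01057 to 0.01188 for H2AFJ, -0.07879 to 0.006003 for HIST1H2BC, -0.03905 to 0.04147 for HIST1H2BJ, -0.02139 to 0.007813 for HIST4H4 and -0.03273 to 0.001273 for SLBP. The test with DESeq2 planned for counts was not run, because the values are log2. The cause of these shifts was not tested. Read depth is unknown, so no counting error is given, and 3 libraries per group limit the precision.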
